A study of Mus musculus with 39 samples.

Results

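GABA-A receptors are pentameric chloride channels, most often built from alpha, beta and gamma chains, and in this dataset 4 of the subunit genes were followed: Gabra3 and Gabra5 (the alpha3 and alpha5 subunits), Gabrb2 (beta2) and Gabrg3 (gamma3). They were chosen by gene symbol, and with earlier results of these data known. Every probe set annotated to that symbol alone was used, which gave 12 probe sets of 45037 tested and 4 genes of 18193 with a probe set of their own: 1 for Gabra5, 2 for Gabra3, 5 for Gabrb2 and 4 for Gabrg3. One further probe set names Gabrg3 together with a second symbol and was left out. Because of that choice of genes, counts among the 12 beside the share of all probe sets are descriptions, not tests. Probe sets of 1 gene are also not independent of each other.

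Alpha and beta subunits form the GABA binding site between them, and the gamma subunit with its neighbouring alpha subunit forms the benzodiazepine site. Receptors with alpha5 are best known from the hippocampus, where many of them lie outside synapses and carry a tonic current. Dorsal root ganglion (DRG) neurons hold much chloride, so GABA depolarises them, and GABA-A receptors on their central terminals serve presynaptic inhibition in the spinal cord. Proprioceptors are the DRG neurons that report muscle length and tension, and they depend on neurotrophin 3 (NT3), supplied by muscle and sensed through its receptor TrkC.

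The data came from 39 Affymetrix mouse expression arrays hybridised with DRG RNA. In all newborn (p0) mice a TrkCGFP BAC transgene marked proprioceptors. The authors found GFP in only part of the TrkC-expressing neurons, so GFP-negative cells can include neurons that express TrkC. Cells were sorted into GFP-positive (TrkC+) and GFP-negative (TrkC-) samples. Both were taken from pooled L1 to L6 DRG of NT3-/-Bax-/-, Bax-/-, mlcNT3 and wild-type mice, with 2 arrays and 350 cells a sample (16 arrays), and from L5 and L1 DRG of wild-type mice, with 100 cells a sample (11 arrays, 2 for L1 TrkC+ and 3 for each other group). Whole L5 and L1 DRG of adult wild-type mice, kept for 5 weeks with or without a running wheel, gave 12 arrays, 3 a group. Bax is needed for the death of neurons that lose trophic support, so NT3-/-Bax-/- mice keep neurons that would die without NT3, and their control is Bax-/-. In mlcNT3 mice a myosin light chain promoter drives NT3 in muscle, and their control is the wild-type. The p0 and adult samples carry the strain label 129/C57Bl6, while the methods give C57Bl6 for the adult mice. Titles of adult samples read TrkC+ at L1 and TrkC- at L5, but no sorting is labelled and these were treated as whole DRG. Nothing in the labels says which arrays came from separate litters, so p-values measure only the spread between these samples.

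On the arrays, markers of proprioceptors (Pvalb, Ntrk3, Runx3 and others, 4 of 6 measured) summed to 4482 to 19640 linear intensity units in TrkC+ samples against 171.5 to 1375 in TrkC- samples, with no overlap. The lowest TrkC+ sums were those of NT3-/-Bax-/- mice (4482 and 6437, against 14590 and 15720 in Bax-/-). The TrkC- samples of NT3-/-Bax-/- mice had higher proprioceptor sums than those of Bax-/- mice, at 911.6 to 1279 against 292.6 to 298.8. They stood apart in other markers too, with fibroblast markers (4 of 4 measured) at 25720 to 35690 against 1518 to 2705. Glial markers (8 of 10) were at 30550 to 36910 against 14570 to 15570 and endothelial markers (4 of 4) at 1403 to 1441 against 155.8 to 211.1. Macrophage markers (4 of 4) overlapped, at 358.5 to 9511 against 198.4 to 1110. The neuron markers (6 of 6) of these samples were lower, at 19410 to 22800 against 31220 to 33060. Their nociceptor markers (6 of 10) were lower as well, at 12300 to 24870 against 31330 to 32820. In bulk samples such as these, fewer cells of a type and less RNA per cell cannot be told apart.

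Promoter windows of Gabra5, Gabrb2 and Gabra3 are shown because loss of NT3 gave calls in TrkC+ cells for some of them and not for others. The genes were not tested against each other. Gabrb2 and Gabra3 were higher in NT3-/-Bax-/- than in Bax-/- mice, while the difference of Gabra5 did not pass the test. Gabra5 and, on probe set 1428203_at, Gabrb2 were both higher in TrkC+ than in TrkC- cells of every genotype. Shown are RefSeq windows of 300 bases on GRCm38.p6, from 250 bases before to 50 bases after an annotated start, 5′ to 3′ on the strand of the gene. All 4 genes matched, and the first of the annotated starts is shown where RefSeq gives several. Capitals mark matches to the TATA box (TATAAA, gene strand only) and the GC box (GGGCGG, either strand).
Gabra5, chr7:57510010-57510309, minus strand: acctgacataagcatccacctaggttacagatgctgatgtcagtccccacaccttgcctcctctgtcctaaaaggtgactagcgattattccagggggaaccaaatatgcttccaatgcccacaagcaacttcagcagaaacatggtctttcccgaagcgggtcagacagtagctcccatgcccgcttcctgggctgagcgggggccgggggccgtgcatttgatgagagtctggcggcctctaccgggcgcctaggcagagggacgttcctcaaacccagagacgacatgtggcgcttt
Gabrb2, chr11:42420190-42420489, plus strand: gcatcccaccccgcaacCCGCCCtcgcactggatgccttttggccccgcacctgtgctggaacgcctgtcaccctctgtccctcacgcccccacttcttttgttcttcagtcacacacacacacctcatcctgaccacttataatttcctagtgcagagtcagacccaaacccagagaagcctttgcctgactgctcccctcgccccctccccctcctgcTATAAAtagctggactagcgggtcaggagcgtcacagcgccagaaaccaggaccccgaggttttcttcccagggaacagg
Gabra3, chrX:72656870-72657169, minus strand: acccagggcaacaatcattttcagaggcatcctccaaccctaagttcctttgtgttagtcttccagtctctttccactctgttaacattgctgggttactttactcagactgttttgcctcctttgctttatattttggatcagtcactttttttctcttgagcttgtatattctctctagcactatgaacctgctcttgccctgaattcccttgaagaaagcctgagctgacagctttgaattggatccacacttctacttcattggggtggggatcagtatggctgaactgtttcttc

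The Gabrb2 window shown held both a TATA box and a GC box, found in 8.32% and 35.7% of all 32851 such windows. Windows at the other annotated starts of Gabrb2 held neither motif, and had GC contents of 54.7% and 41.0%. Neither motif was found in the Gabra5 and Gabra3 windows. None of these windows matched the RUNX motif TGTGGT (16.8% of all windows), the AP-1 motif TGANTCA (7.81%) or the CRE motif TGACGTCA (1.79%), each searched on both strands. The Gabra3 window had no CpG and a GC content of 43.0%, against 13 CpG and 56.7% for Gabra5 and 11 CpG and 59.0% for Gabrb2. Over all windows the medians were 7 CpG and 52.7% GC. Gabra5 and Gabrg3 are neighbours on chromosome 7, while Gabrb2 lies next to Gabra6 on chromosome 11 and Gabra3 next to Gabrq on the X chromosome.

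The first question was which of these subunits distinguish proprioceptors from the other DRG cells. Gabra5 did so in every comparison made, being 7.58-fold to 15.4-fold higher in TrkC+ than in TrkC- cells of the same genotype or level. In wild-type mice its only probe set (1433602_at) gave log2 intensities of 10.39 and 10.41 in TrkC+ cells, against 6.65 and 6.43 in TrkC- cells. The Bax-/- arrays read 9.88 and 10.17 in TrkC+ cells and 7.07 and 6.70 in TrkC- cells. In mlcNT3 mice the values were 10.30 and 9.65 in TrkC+ cells, against 6.94 and 7.16 in TrkC- cells, and in NT3-/-Bax-/- mice 9.74 and 10.86 against 6.29 and 6.79. Every TrkC+ array thus lay above every TrkC- array, and the NT3-/-Bax-/- TrkC+ arrays spanned the wild-type and Bax-/- ones. Differences are given on the log2 scale from limma, and a probe set is called where its p, adjusted over all probe sets, is under 0.05. For Gabra5 the difference was 3.86 in wild-type (SE 0.33, adjusted p = 1.74e-05), 3.14 in Bax-/- (SE 0.33, adjusted p = 9.87e-05), 2.92 in mlcNT3 (SE 0.33, adjusted p = 0.00013) and 3.76 in NT3-/-Bax-/- mice (SE 0.33, adjusted p = 1.08e-05).

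**Figure D1:**
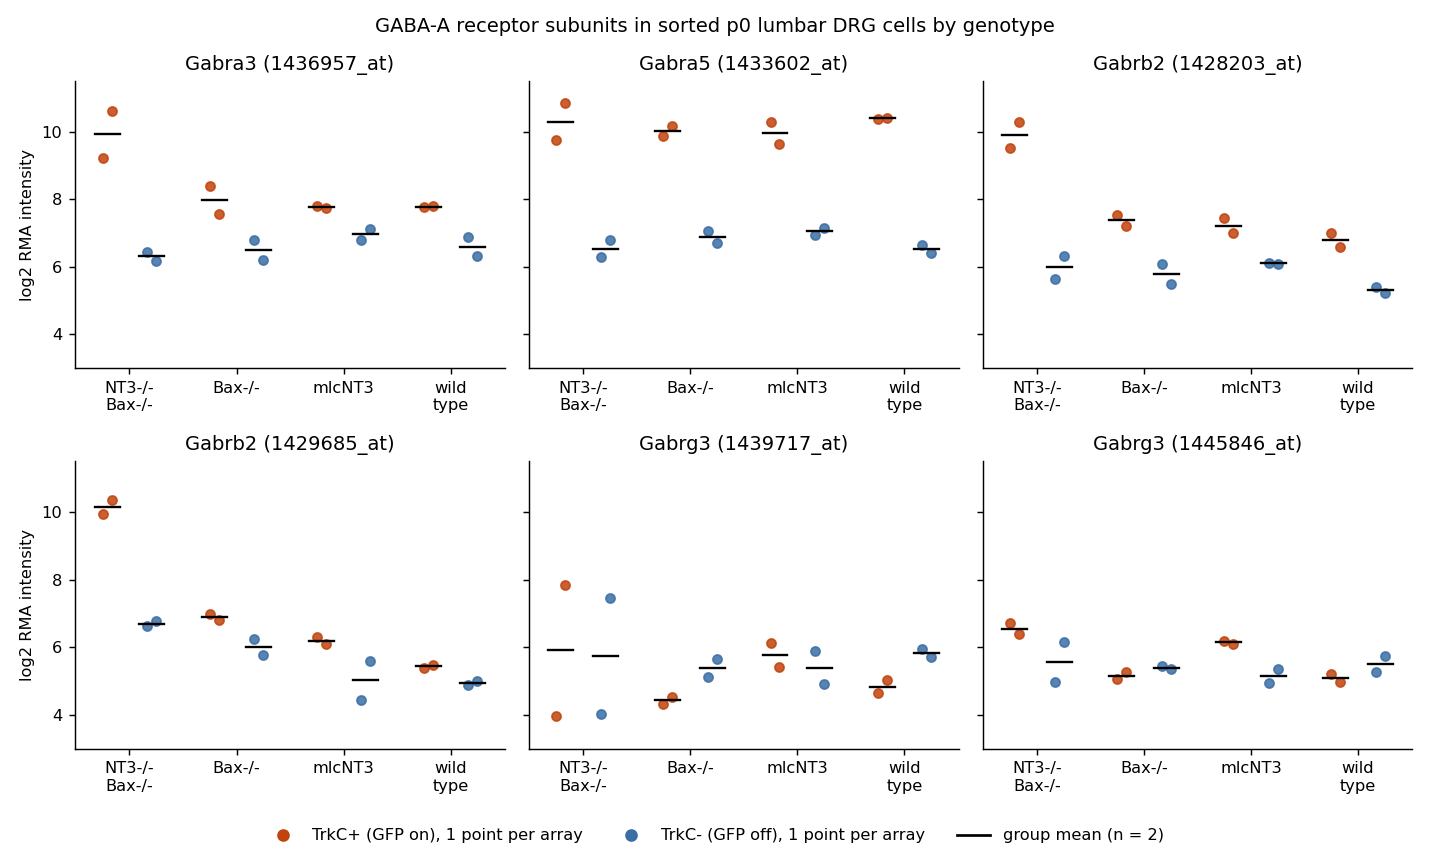
Log2 RMA intensity of 6 probe sets of Gabra3, Gabra5, Gabrb2 and Gabrg3 in sorted p0 lumbar DRG cells, by genotype, with TrkC+ in orange and TrkC- in blue, 1 point per array and a line at the mean of 2 arrays. Gabra5 is high in the TrkC+ cells of all 4 genotypes, whereas Gabra3 and Gabrb2 have their highest values in NT3-/-Bax-/- TrkC+ cells and the NT3-/-Bax-/- points of Gabrg3 1439717_at lie far apart, at 3.95 and 7.85 in TrkC+ cells.

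Gabrb2 was the other subunit called in wild-type mice, with a smaller difference and on probe set 1428203_at alone. Of its other probe sets there, 1429685_at and 1450319_at had higher means in TrkC+ than in TrkC- cells (5.43 against 4.93 and 4.34 against 4.11). In contrast, 1428204_at and 1428205_x_at had lower means in TrkC+ cells (4.77 against 4.995 and 4.69 against 4.98). Its brightest p0 probe set, 1428203_at, read 7.00 and 6.58 in TrkC+ cells against 5.40 and 5.24 in TrkC- cells, a log2 difference of 1.47 (SE 0.31, adjusted p = 0.0101). In Bax-/- mice it read 7.54 and 7.21 in TrkC+ cells and 6.09 and 5.50 in TrkC- cells (1.58, SE 0.31, adjusted p = 0.00743). In mlcNT3 mice it read 7.46 and 6.99 in TrkC+ cells and 6.13 and 6.08 in TrkC- cells (1.12, SE 0.31, adjusted p = 0.0394). These groups did not overlap, but each call rested on single arrays. The wild-type call was lost without TrkC+ replicate 1 (1.26, adjusted p = 0.11), TrkC- replicate 1 (1.55, adjusted p = 0.0555) or TrkC- replicate 2 (1.39, adjusted p = 0.0848), the Bax-/- call without TrkC+ replicate 1 (1.42, adjusted p = 0.058) or TrkC- replicate 2 (1.29, adjusted p = 0.0823) and in a fit of the 4 Bax-/- arrays alone (adjusted p = 0.0537), and the mlcNT3 call without any 1 of its 4 arrays (0.88 to 1.35, adjusted p up to 0.223). A second Gabrb2 probe set, 1429685_at, was called in mlcNT3 mice (6.29 and 6.09 in TrkC+ cells, against 4.45 and 5.58 in TrkC- cells, a log2 difference of 1.18, SE 0.30, adjusted p = 0.0249), and that call was lost without TrkC- replicate 1 (0.61, adjusted p = 0.241), TrkC+ replicate 1 (1.08, adjusted p = 0.13) or TrkC+ replicate 2 (1.28, adjusted p = 0.0932).

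Gabra3 was called in 1 of these 3 genotypes. Its brighter probe set, 1436957_at, read 7.78 and 7.80 in wild-type TrkC+ cells against 6.87 and 6.33 in TrkC- cells, a log2 difference of 1.19 that did not pass the test (SE 0.40, adjusted p = 0.0935) except in a fit of these 4 arrays alone (adjusted p = 0.00484). In Bax-/- mice it was called (8.39 and 7.57 in TrkC+ cells, against 6.80 and 6.19 in TrkC- cells, a log2 difference of 1.48, SE 0.40, adjusted p = 0.0399). That call was lost without TrkC+ replicate 1 (1.07, adjusted p = 0.251), TrkC- replicate 1 (1.79, adjusted p = 0.0703) or TrkC- replicate 2 (1.18, adjusted p = 0.265) and in a fit of the 4 Bax-/- arrays alone (adjusted p = 0.126). In mlcNT3 mice the difference was 0.81 (SE 0.40, adjusted p = 0.273, and 0.0165 with those 4 arrays alone).

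Gabrg3, by contrast, had no probe set called higher in TrkC+ cells of these 3 genotypes. Its probe set 1439717_at read 4.63 and 5.03 in wild-type TrkC+ cells, against 5.94 and 5.72 in TrkC- cells, and the log2 difference was -0.998 (SE 1.10, adjusted p = 0.675) in a fit that shares its spread with the NT3-/-Bax-/- arrays, the pairs that differed most. With the 4 wild-type arrays alone the same difference passed (adjusted p = 0.0072). The probe sets 1422187_at and 1444549_at of Gabrg3 and 1450319_at of Gabrb2 were dim, with means between percentiles 11.43 and 20.39 of their arrays in each set of arrays. Means of Gabrg3 1439717_at and 1445846_at lay between percentiles 22.98 and 41.27, so all 4 Gabrg3 probe sets were under the array medians.

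In NT3-/-Bax-/- mice probe sets of all 4 subunits were called between the populations. There Gabrb2 was 15.1-fold higher in TrkC+ than in TrkC- cells on 1428203_at (log2 difference 3.92, SE 0.31, adjusted p = 5.62e-06) and 10.9-fold on 1429685_at (3.45, SE 0.30, adjusted p = 1e-05), with the dimmer 1428204_at and 1428205_x_at also called (1.89 and 1.79). Gabra3 1436957_at was 12.2-fold higher (3.61, SE 0.40, adjusted p = 5.71e-05) and 1421263_at was called too (0.86, SE 0.16, adjusted p = 0.0028, and 0.124 with these 4 arrays alone). Gabrg3 was called on 1445846_at (6.71 and 6.39 in TrkC+ cells, against 4.98 and 6.15 in TrkC- cells, a log2 difference of 0.99, SE 0.31, adjusted p = 0.0446). That call was lost without TrkC+ replicate 1 (0.83, adjusted p = 0.187), TrkC+ replicate 2 (1.14, adjusted p = 0.0707) or TrkC- replicate 1 (0.40, adjusted p = 0.363) and with these 4 arrays alone (adjusted p = 0.293). The dim 1444549_at (0.69, adjusted p = 0.0332) lost its call without TrkC+ replicate 1 (0.34, adjusted p = 0.26) or TrkC- replicate 1 (0.55, adjusted p = 0.179) and with these 4 arrays alone (adjusted p = 0.31).

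Counted over the 12 probe sets, 2 were called higher in TrkC+ cells and 0 lower in wild-type mice, where 8.95% of all probe sets were called, 5.12% higher and 3.83% lower. In Bax-/- mice the count was 3 higher and 0 lower, with 7.82% of all probe sets called, 4.05% higher and 3.77% lower. In mlcNT3 mice it was 3 higher and 0 lower, with 10% of all probe sets called, 4.18% higher and 5.84% lower. The median log2 difference of the 12 was -0.15 in wild-type, 0.39 in Bax-/- and 0.43 in mlcNT3 mice, against medians of -0.07, -0.01 and 0.00 over all probe sets. In NT3-/-Bax-/- mice 9 of the 12 were called higher and 0 lower, with a median of 1.39, while 19.3% of all probe sets were called, 10.4% higher and 8.94% lower, with a median of 0.03.

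The second question was what the loss of NT3 does in neurons that survive because Bax is missing. In TrkC+ cells Gabrb2 and Gabra3 were several-fold higher in NT3-/-Bax-/- than in Bax-/- mice, Gabrg3 was higher on 1 of its probe sets, and Gabra5 did not pass the test. Of the 12 probe sets 7 were called higher and 0 lower, while 18.2% of all probe sets were called, 9.05% higher and 9.17% lower. These 7 belonged to Gabrb2, Gabra3 and Gabrg3, and probe sets of 1 gene are not independent. The median log2 difference was 1.43 over the 12 and 0.01 over all probe sets.

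Gabrb2 had the largest difference of these subunits. Probe set 1429685_at read 9.94 and 10.35 in NT3-/-Bax-/- TrkC+ cells, against 6.98 and 6.81 in Bax-/- TrkC+ cells, which is 9.48-fold (log2 difference 3.25, SE 0.30, adjusted p = 2.84e-05). In wild-type TrkC+ cells it read 5.39 and 5.47. Probe set 1428203_at read 9.50 and 10.30 in NT3-/-Bax-/- against 7.54 and 7.21 in Bax-/- TrkC+ cells (5.76-fold, log2 difference 2.53, SE 0.31, adjusted p = 0.000196). Both NT3-/-Bax-/- arrays were higher than any other of the 16 genotype arrays on either probe set. The dimmer probe sets moved the same way: 1428204_at read 6.69 and 7.52 against 5.52 and 5.52 (1.58, SE 0.25, adjusted p = 0.00102), and 1428205_x_at, whose suffix marks probes that may bind other transcripts, read 6.68 and 6.85 against 5.27 and 5.23 (1.51, SE 0.17, adjusted p = 9.3e-05). In a fit of only these 4 arrays the 1428204_at call was lost (adjusted p = 0.0631). The fifth, 1450319_at, stayed between 3.65 and 4.79 on all 39 arrays and was called in no comparison.

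Gabra3 followed with a 3.84-fold difference. Its probe set 1436957_at read 9.23 and 10.62 in NT3-/-Bax-/- TrkC+ cells, against 8.39 and 7.57 in Bax-/- TrkC+ cells, without overlap (log2 difference 1.94, SE 0.40, adjusted p = 0.00517). Without NT3-/-Bax-/- TrkC+ replicate 2, the brighter of the pair, it was 1.25 and still passed (the highest adjusted p without 1 array was 0.0387), but in a fit of only these 4 arrays it did not (adjusted p = 0.116). The dimmer probe set 1421263_at read 5.26 and 4.88 against 4.49 and 4.31 (0.67, SE 0.16, adjusted p = 0.0141), a call lost without NT3-/-Bax-/- TrkC+ replicate 1 (0.48, adjusted p = 0.121) or Bax-/- TrkC+ replicate 2 (0.58, adjusted p = 0.0662) and in the fit of 4 arrays (adjusted p = 0.209).

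Gabra5 read 9.74 and 10.86 in NT3-/-Bax-/- TrkC+ cells, against 9.88 and 10.17 in Bax-/- TrkC+ cells, and the groups overlapped. The log2 difference was 0.28 (95% confidence interval -0.44 to 0.99, adjusted p = 0.646). Without NT3-/-Bax-/- TrkC+ replicate 2 it was -0.28 (adjusted p = 0.596). The differences of Gabrb2 1429685_at and Gabra3 1436957_at in the same cells lie above that interval. This leaves out their own spread, and the genes were not tested against each other.

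Gabrg3 was uneven. Probe set 1445846_at read 6.71 and 6.39 in NT3-/-Bax-/- TrkC+ cells, against 5.05 and 5.27 in Bax-/- TrkC+ cells (log2 difference 1.39, SE 0.31, adjusted p = 0.00875), a call lost without NT3-/-Bax-/- TrkC+ replicate 1 (1.23, adjusted p = 0.0643) or Bax-/- TrkC+ replicate 1 (1.28, adjusted p = 0.0577). Probe set 1439717_at instead read 3.95 and 7.85 in NT3-/-Bax-/- TrkC+ cells, against 4.33 and 4.52 in Bax-/- TrkC+ cells. One array was thus the highest of the 16 genotype arrays for this probe set and the other the lowest, and the NT3-/-Bax-/- TrkC- arrays were split in the same way, at 4.02 and 7.45. The log2 difference of 1.47 (SE 1.10, adjusted p = 0.424) turned to -0.47 without TrkC+ replicate 2 (adjusted p = 0.802), and was 3.42 without TrkC+ replicate 1 (adjusted p = 0.043).

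**Figure D2:**
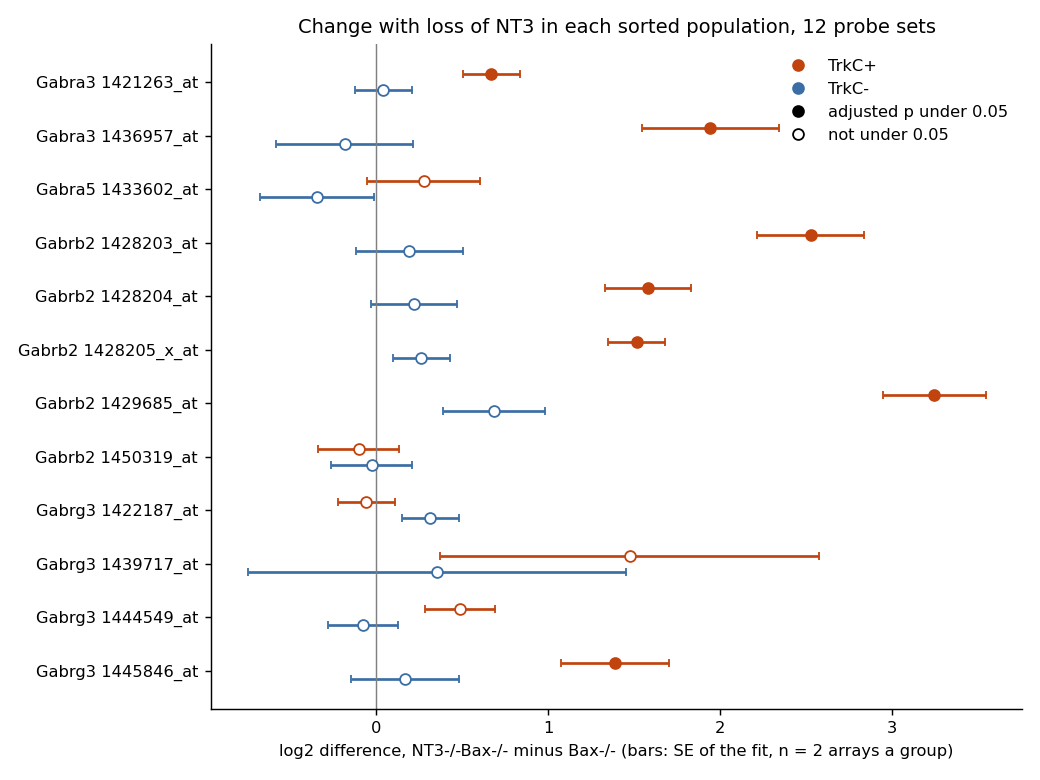
Log2 difference between NT3-/-Bax-/- and Bax-/- mice for each of the 12 probe sets, in TrkC+ cells (orange) and TrkC- cells (blue), with the standard error of the fit and n = 2 arrays a group. Filled points passed an adjusted p of 0.05: 7 of the 12 did in TrkC+ cells and 0 in TrkC- cells.

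In the TrkC- cells limma called 0 of the 12 probe sets for the same pair of genotypes (1 at an unadjusted p under 0.05), although 21.7% of all probe sets were called. The closest was Gabrb2 1429685_at, which read 6.62 and 6.77 in NT3-/-Bax-/- against 6.24 and 5.78 in Bax-/- TrkC- cells (0.69, SE 0.30, adjusted p = 0.128). Whether the 2 populations changed by different amounts was tested directly, as the change in TrkC+ cells minus the change in TrkC- cells. That difference passed for 4 probe sets of Gabrb2 and 1 of Gabra3, 5 of the 12 in all, 5 higher and 0 lower, while 9.65% of all probe sets were called, 4.53% higher and 5.13% lower. It was 2.56 for 1429685_at (SE 0.42, adjusted p = 0.00257), 2.33 for 1428203_at (SE 0.44, adjusted p = 0.00552), 1.25 for 1428205_x_at (SE 0.24, adjusted p = 0.00551) and 1.36 for 1428204_at (SE 0.35, adjusted p = 0.0299). For Gabra3 1436957_at it was 2.12 (SE 0.56, adjusted p = 0.0334). For Gabra5 it was 0.62 and did not pass (95% confidence interval -0.39 to 1.63, adjusted p = 0.496). The NT3-/-Bax-/- TrkC- samples had higher proprioceptor, fibroblast, glial and endothelial sums and lower neuron and nociceptor sums, as given above. The part of these sums in the results was not tested.

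Only 1 of these 5 calls, that of Gabrb2 1429685_at, also passed in a fit restricted to the 8 arrays of the comparison. The Gabra3 call was lost without Bax-/- TrkC+ replicate 2 (1.71, adjusted p = 0.0996), Bax-/- TrkC- replicate 1 (1.82, adjusted p = 0.13), NT3-/-Bax-/- TrkC+ replicate 2 (1.43, adjusted p = 0.0815) or NT3-/-Bax-/- TrkC- replicate 2 (1.99, adjusted p = 0.0711), and that of 1428204_at without any 1 of 6 of the 8 arrays (adjusted p up to 0.0991). Proprioceptor markers were lower in NT3-/-Bax-/- TrkC+ cells, as given above, and summed neuron markers (6 of 6 measured) were 23180 and 28870 against 31630 and 33700 in Bax-/- and glial markers 3252 to 7044 against 10010 to 13560. Fibroblast markers were 887.7 to 1254 against 638.8 to 901.7. Their part in these results was not tested.

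Against wild-type TrkC+ cells, which share the NT3-/-Bax-/- arrays with the comparison above, 8 of the 12 probe sets were called higher in NT3-/-Bax-/- TrkC+ cells and 0 lower, while 26% of all probe sets were called, 13.3% higher and 12.7% lower. Gabrb2 1429685_at was 26.2-fold higher (log2 difference 4.71, SE 0.30, adjusted p = 1.52e-06) and Gabra3 1436957_at 4.40-fold (2.14, SE 0.40, adjusted p = 0.00193). Gabra5 differed by -0.10 (95% confidence interval -0.81 to 0.62, adjusted p = 0.876), and by 0.46 without NT3-/-Bax-/- TrkC+ replicate 1 (adjusted p = 0.355). Gabrg3 1439717_at gave 1.07 (SE 1.10, adjusted p = 0.542), -0.87 without NT3-/-Bax-/- TrkC+ replicate 2 (adjusted p = 0.582) and 3.02 without replicate 1. Gabrg3 1445846_at was called higher, at 6.71 and 6.39 in NT3-/-Bax-/- against 5.20 and 4.96 in wild-type TrkC+ cells (1.47, SE 0.31, adjusted p = 0.00435), and passed without any 1 array (adjusted p up to 0.0418). The Gabrg3 probe set 1444549_at was called (0.76, adjusted p = 0.0163) but is dim, and lost its call without NT3-/-Bax-/- TrkC+ replicate 1 (0.41, adjusted p = 0.161), wild-type TrkC+ replicate 1 (0.78, adjusted p = 0.0703) or replicate 2 (0.73, adjusted p = 0.0882) and with these 4 arrays alone (adjusted p = 0.109). The dim Gabra3 probe set 1421263_at (0.75, adjusted p = 0.00514) lost its call without NT3-/-Bax-/- TrkC+ replicate 1 (0.56, adjusted p = 0.0529).

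Loss of Bax alone was the control for this genotype. By limma 0 of the 12 probe sets were called between Bax-/- and wild-type TrkC+ cells (3 at an unadjusted p under 0.05), where 0.5% of all probe sets were called, and 0 between the TrkC- cells (2 at an unadjusted p under 0.05), where 0.178% were. The nearest was again Gabrb2 1429685_at, at 6.98 and 6.81 in Bax-/- against 5.39 and 5.47 in wild-type TrkC+ cells, without overlap (1.47, SE 0.30, adjusted p = 0.0597), and it passed when dim probe sets were left out (adjusted p = 0.0448). In TrkC- cells this probe set read 6.24 and 5.78 in Bax-/- against 4.87 and 4.99 in wild-type mice (1.08, SE 0.30, adjusted p = 0.237).

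More NT3 from muscle was tested with the mlcNT3 mice. By limma 0 of the 12 probe sets were called between mlcNT3 and wild-type TrkC+ cells (3 at an unadjusted p under 0.05), where 0.209% of all probe sets were called. The count was also 0 in TrkC- cells (1 at an unadjusted p under 0.05, 0.00444% of all probe sets called) and in the test of whether the populations changed differently (3 at an unadjusted p under 0.05, 0.0422% of all called). Gabrg3 1445846_at stood out by value, at 6.18 and 6.10 in mlcNT3 against 5.20 and 4.96 in wild-type TrkC+ cells (1.06, SE 0.31, adjusted p = 0.38, and 0.0209 with those 4 arrays alone). Gabrb2 1429685_at read 6.29 and 6.09 against 5.39 and 5.47 (0.76, SE 0.30, adjusted p = 0.71), and Gabra5 10.30 and 9.65 against 10.39 and 10.41 (-0.43, SE 0.33, adjusted p = 1). Gabrb2 1428203_at and Gabra3 1436957_at did not pass either, with 95% confidence intervals of -0.24 to 1.11 and of -0.88 to 0.85.

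Ordered by level within the genotype arrays, Gabra3 1436957_at had its highest mean in NT3-/-Bax-/- TrkC+ cells (9.92 ± 0.98, SD, n = 2), clear of Bax-/- (7.98 ± 0.58), wild-type (7.79 ± 0.01) and mlcNT3 TrkC+ cells (7.77 ± 0.04), which overlapped. All TrkC- groups came next, at 6.31 to 6.96 and overlapping with their neighbours. Gabrb2 1428203_at had the same first group (9.90 ± 0.56) and then Bax-/- (7.38 ± 0.23), mlcNT3 (7.22 ± 0.33) and wild-type TrkC+ cells (6.79 ± 0.30), which overlapped in that order. On 1429685_at the TrkC- cells of NT3-/-Bax-/- mice (6.69 ± 0.11) came after the TrkC+ cells of Bax-/- mice (6.90 ± 0.12) and above the TrkC+ cells of mlcNT3 (6.19 ± 0.14) and of wild-type mice (5.43 ± 0.06).

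At single lumbar levels the TrkC+ cells were sorted from L5 ganglia, which serve the hindlimb, and from L1 ganglia. Gabra5, Gabrb2 and Gabra3 were called higher in TrkC+ than in TrkC- cells at both levels, and Gabrg3 was called lower at L1. At L5, 7 of the 12 probe sets were called higher in TrkC+ cells and 0 lower (19.9% of all probe sets called, 9.91% higher and 10% lower), and at L1 5 were called higher and 2 lower (17.9% of all probe sets called, 9.03% higher and 8.92% lower). The median log2 difference was 0.64 at L5 and 0.54 at L1, against 0.04 and 0.02 over all probe sets.

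Gabra5 at L5 read 11.22, 11.05 and 10.85 in TrkC+ cells, against 7.28, 6.94 and 7.08 in TrkC- cells, which is 15.4-fold (log2 difference 3.94, SE 0.14, adjusted p = 9.71e-08). At L1 it read 10.57 and 10.50 in TrkC+ cells, against 6.99, 6.83 and 7.15 in TrkC- cells, which is 11.7-fold (3.55, SE 0.16, adjusted p = 2.61e-07). At both levels all TrkC+ arrays lay above all TrkC- arrays.

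Gabra3 1436957_at at L5 read 9.06, 9.27 and 9.17 in TrkC+ cells, against 7.72, 7.22 and 7.34 in TrkC- cells (3.34-fold, 1.74, SE 0.16, adjusted p = 1.82e-05). The L1 values were 8.73 and 9.13 in TrkC+ cells, against 7.97, 7.82 and 8.05 in TrkC- cells (1.98-fold, 0.98, SE 0.18, adjusted p = 0.00256). The groups did not overlap at either level. The dimmer probe set 1421263_at passed at L5 (0.85, SE 0.19, adjusted p = 0.00965).

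Gabrb2 1428203_at at L5 read 7.97, 7.98 and 8.17 in TrkC+ cells, against 6.42, 6.29 and 6.56 in TrkC- cells (3.07-fold, 1.62, SE 0.12, adjusted p = 3.48e-06). At L1 it read 8.28 and 8.33 in TrkC+ cells, against 6.50, 6.65 and 6.56 in TrkC- cells (3.33-fold, 1.73, SE 0.13, adjusted p = 5.21e-06). Neither pair of groups overlapped. Probe set 1429685_at was called in the same direction (1.35, SE 0.29, adjusted p = 0.00594 at L5 and 1.46, SE 0.32, adjusted p = 0.00798 at L1), and its L1 call was lost without L1 TrkC+ replicate 2 (1.21, adjusted p = 0.0812). The dim probe sets 1428204_at (0.47, adjusted p = 0.0428 at L5 and 0.63, adjusted p = 0.0213 at L1) and 1428205_x_at (0.81, adjusted p = 0.0175 at L5) lost their calls without single arrays, 4 of the 6 and 4 of the 5 for 1428204_at (adjusted p up to 0.144 and 0.12) and 3 of the 6 for 1428205_x_at (adjusted p up to 0.07).

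Gabrg3 1439717_at at L1 read 4.23 and 4.75 in TrkC+ cells, against 5.42, 5.74 and 5.57 in TrkC- cells, a fall of 2.12-fold (log2 difference -1.09, SE 0.18, adjusted p = 0.00149). At L5 it read 4.67, 4.70 and 4.45 in TrkC+ cells and 4.88, 4.54 and 4.71 in TrkC- cells, and the groups overlapped (-0.10, SE 0.16, adjusted p = 0.726). The L1 TrkC- cells were thus the brightest of the 4 groups. They lay at percentiles 40.06 to 44.77 of their arrays, and the L1 TrkC+ cells at 17.65 to 28.6. Probe set 1445846_at was also called lower at L1 (-0.53, SE 0.16, adjusted p = 0.0413), a call lost without TrkC+ replicate 2 (-0.31, adjusted p = 0.325), TrkC- replicate 1 (-0.50, adjusted p = 0.111), replicate 2 (-0.50, adjusted p = 0.107) or replicate 3 (-0.60, adjusted p = 0.0522), with the replicate block (adjusted p = 0.0818) and with only the L1 arrays (adjusted p = 0.0905).

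**Figure D3:**
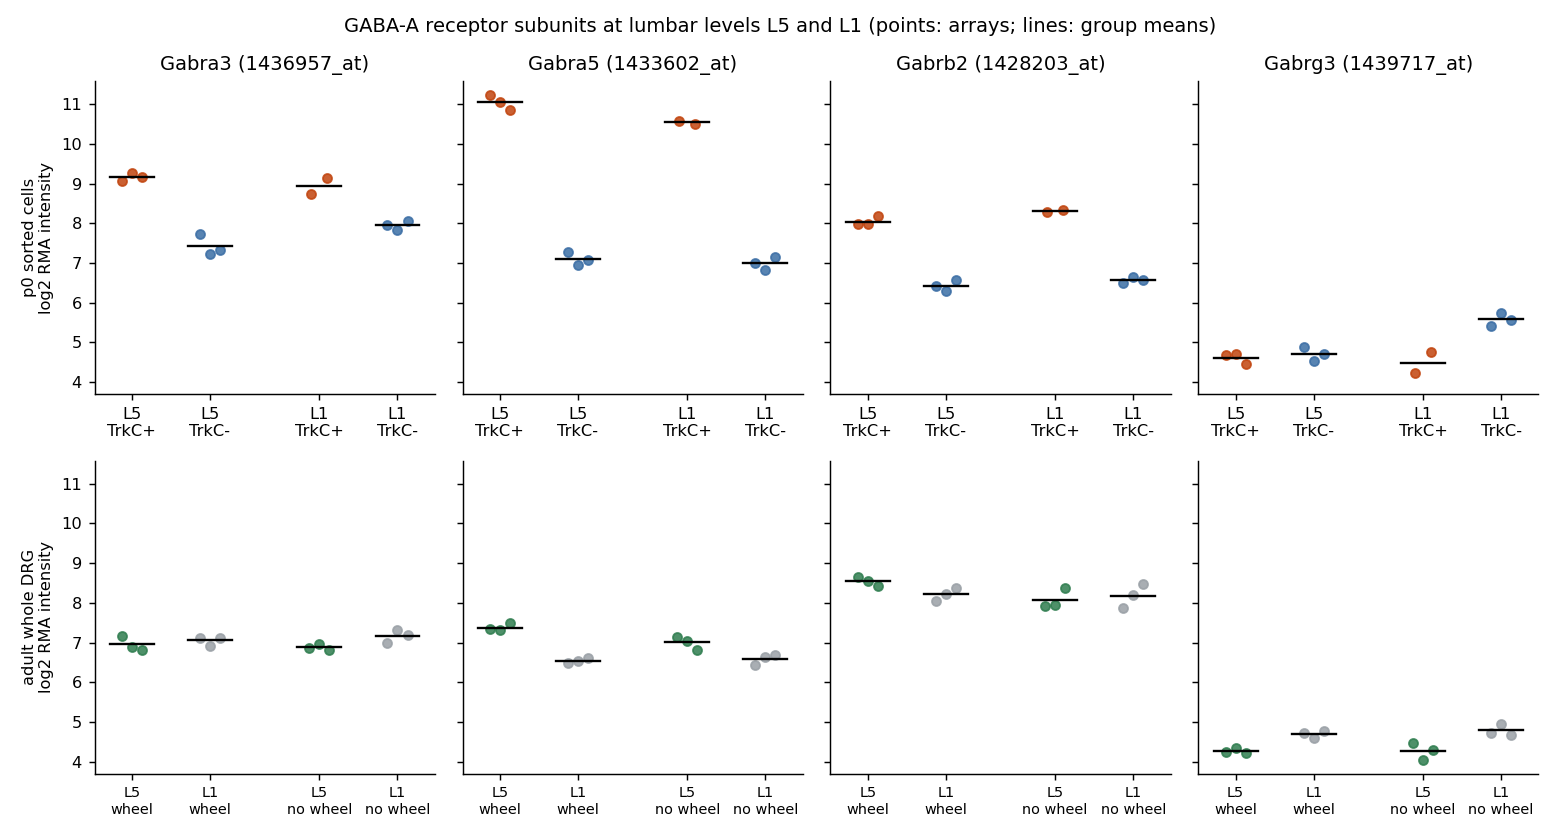
Log2 RMA intensity of 1 probe set for each of the 4 genes at lumbar levels L5 and L1, in sorted p0 cells (upper row, TrkC+ in orange and TrkC- in blue) and in adult whole DRG with or without a running wheel (lower row, L5 in green and L1 in grey), with 1 point per array and a line at the group mean. Gabra5 lies between 10.50 and 11.22 in p0 TrkC+ cells and between 6.83 and 7.28 in TrkC- cells, and in adult DRG it is higher at L5 than at L1 in both housing conditions.

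Direct comparison of L5 with L1 by limma gave 0 calls among the 12 probe sets in TrkC+ cells (2 at an unadjusted p under 0.05, 0.397% of all probe sets called) and 0 in TrkC- cells (3 at an unadjusted p under 0.05, 0.16% of all called). In TrkC+ cells the dim Gabra3 probe set 1421263_at read 5.61, 5.02 and 5.15 at L5 against 4.77 and 4.54 at L1 (0.60, SE 0.22, adjusted p = 0.38), and Gabra5 read 11.22, 11.05 and 10.85 against 10.57 and 10.50 (0.50, SE 0.16, adjusted p = 0.301). In TrkC- cells Gabrg3 1439717_at read 4.88, 4.54 and 4.71 at L5 against 5.42, 5.74 and 5.57 at L1 (-0.87, SE 0.16, adjusted p = 0.0932). None of these 3 pairs of groups overlapped, but groups of 2 or 3 arrays can lie apart by chance. How many of all probe sets did so was not counted. The L5 to L1 difference did not pass as different between the populations for any of the 12 (3 at an unadjusted p under 0.05, 0.0666% of all probe sets called), with 0.99 for Gabrg3 1439717_at (SE 0.24, adjusted p = 0.261) and 0.76 for Gabra3 1436957_at (SE 0.24, adjusted p = 0.482). The labelled TrkC- samples of L1 had a proprioceptor marker sum of 269.2 to 1375, against 17460 to 19640 in L1 TrkC+ samples.

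In adult whole ganglia, where all cell types are measured together, Gabra5 was higher at L5 than at L1 and Gabrg3 was lower, while Gabra3 and Gabrb2 were not called. With a wheel, Gabra5 read 7.34, 7.31 and 7.48 at L5, against 6.48, 6.53 and 6.62 at L1, which is 1.78-fold (log2 difference 0.83, SE 0.10, adjusted p = 0.000178, and 0.78 to 0.87 without any 1 array). Without a wheel it read 7.15, 7.05 and 6.81 at L5, against 6.44, 6.65 and 6.69 at L1, which is 1.33-fold (0.41, SE 0.10, adjusted p = 0.0329). The levels did not overlap in either condition, but the call without a wheel was lost without 5 of its 6 arrays in turn (0.34 to 0.46, adjusted p up to 0.098), the exception being L5 replicate 3. It was also lost with the replicate block (adjusted p = 0.0541) and in a fit of only these 6 arrays (adjusted p = 0.106).

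Gabrg3 1439717_at read 4.25, 4.34 and 4.22 at L5, against 4.72, 4.59 and 4.76 at L1 with a wheel (-0.42, SE 0.11, adjusted p = 0.0321). Without a wheel it read 4.46, 4.06 and 4.28 at L5, against 4.73, 4.95 and 4.68 at L1 (-0.52, SE 0.11, adjusted p = 0.0125). These levels are in the dim part of the array, at percentiles 15.21 to 31.51, and did not overlap in either condition. The call with a wheel was lost without any 1 of its 6 arrays (adjusted p up to 0.114) and with the replicate block (adjusted p = 0.0512). The call without a wheel was lost without L1 replicate 2 (-0.44, adjusted p = 0.0742) or L5 replicate 2 (-0.41, adjusted p = 0.0532) and in a fit of only its 6 arrays (adjusted p = 0.068). Probe set 1445846_at fell without a wheel (4.73, 4.71 and 4.95 at L5, against 5.16, 5.16 and 5.19 at L1, a log2 difference of -0.37, SE 0.09, adjusted p = 0.0274), a call lost without 5 of the 6 arrays in turn (adjusted p up to 0.101) and with only these 6 arrays (adjusted p = 0.0815), and it did not pass with a wheel (-0.12, SE 0.09, adjusted p = 0.5).

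Gabrb2 1428203_at read 8.66, 8.55 and 8.43 at L5, against 8.05, 8.22 and 8.39 at L1 with a wheel (0.33, SE 0.15, adjusted p = 0.241), and 7.92, 7.96 and 8.38 at L5, against 7.86, 8.19 and 8.46 at L1 without one (-0.09, SE 0.15, adjusted p = 0.829, and 0.06 without L1 replicate 3). Gabrb2 1428204_at and 1428205_x_at were higher at L5 by value and did not pass. With a wheel 1428204_at read 7.02, 7.37 and 7.23 at L5, against 5.89, 6.75 and 6.97 at L1 (0.67, SE 0.21, adjusted p = 0.0853, 0.0485 with the replicate block and 0.0362 without L1 replicate 3), and 1428205_x_at read 6.66, 6.49 and 6.74 against 5.87, 6.16 and 6.04 (0.61, SE 0.21, adjusted p = 0.112, and 0.00388 with these 6 arrays alone), both without overlap. Without a wheel 1428204_at read 6.95, 6.62 and 6.96 at L5, against 6.04, 6.37 and 6.53 at L1, again without overlap (0.53, SE 0.21, adjusted p = 0.189), while 1428205_x_at overlapped (0.25, SE 0.21, adjusted p = 0.585, and -0.091 without L1 replicate 1).

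Gabra3 1436957_at lay between 6.81 and 7.31 on all 12 adult arrays and differed by -0.10 between levels with a wheel and -0.28 without (adjusted p = 0.707 and 0.175). Over the 12 probe sets, 1 was called higher and 1 lower at L5 with a wheel, while 5.43% of all probe sets were called, 3.26% higher and 2.17% lower. Without a wheel 1 was higher and 2 lower, while 4.68% of all probe sets were called, 1.92% higher and 2.76% lower. Proprioceptor markers were higher at L5, although the titles of those samples read TrkC-: their sum was 2714 to 3048 at L5 against 1584 to 1628 at L1 with a wheel, and 2351 to 2971 against 1433 to 1566 without. Muscle markers were 370.8 to 3068 at L5 against 141.7 to 238.2 at L1 without a wheel, and 158.9 to 499.2 against 129.6 to 459.5 with one. Without a wheel glial markers were 25880 to 26720 at L5 against 21380 to 24220 at L1 and macrophage markers (4 of 4) 1232 to 1813 against 956.8 to 1215, and with a wheel both overlapped. With a wheel nociceptor markers were 15720 to 18040 at L5 against 19030 to 24180 at L1, and without one they overlapped. Their part in the L5 to L1 differences was not tested.

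Between mice with and without a wheel limma called 0 of the 12 probe sets at L5 (3 at an unadjusted p under 0.05, 0.48% of all probe sets called) and 0 at L1 (1 at an unadjusted p under 0.05, 0.242% of all called). Gabra5 at L5 read 7.34, 7.31 and 7.48 with a wheel, against 7.15, 7.05 and 6.81 without (0.37, SE 0.10, adjusted p = 0.0951), and passed without L5 no wheel replicate 1 (0.45, adjusted p = 0.0369). At L1 it read 6.48, 6.53 and 6.62 with a wheel, against 6.44, 6.65 and 6.69 without (-0.05, SE 0.10, adjusted p = 0.898). The L5 groups of Gabra5 did not overlap and the L1 groups did. The difference between these changes of Gabra5 was 0.42 (SE 0.15) and did not pass (adjusted p = 0.306), in a test that called 0 of the 12 (1 at an unadjusted p under 0.05) and 0% of all probe sets (5169 at an unadjusted p under 0.05). Gabrb2 1428203_at at L5 read 8.66, 8.55 and 8.43 with a wheel, against 7.92, 7.96 and 8.38 without (0.47, SE 0.15, adjusted p = 0.136), and 1428205_x_at read 6.66, 6.49 and 6.74 against 6.07, 6.34 and 6.24 (0.42, SE 0.21, adjusted p = 0.344), neither with overlap.

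Over the 27 p0 arrays the gene whose probe set followed Gabra3 most closely, of 11610 genes compared, was Gabrb2 (Pearson r = 0.93, Spearman rho = 0.90), ahead of Dcakd (r = 0.91) and Kndc1 (r = 0.91). For Gabrb2 the closest were Pcdh9 (r = 0.93), Gabra3 (r = 0.93) and Kndc1 (r = 0.90). Without the NT3-/-Bax-/- TrkC+ arrays the r of Gabra3 with Gabrb2 was 0.91 (25 arrays), within TrkC+ arrays it was 0.91 (13 arrays) and within TrkC- arrays 0.74 (14 arrays). Within the genotype arrays it was 0.95 (16 arrays) and within the level arrays 0.93 (11 arrays). Gabra5 stood closer to other genes, with r = 0.98 for Nrsn2 and E430016F16Rik and 0.97 for Phyhipl, and within TrkC+ arrays its r was 0.52 with Gabra3 and 0.24 with Gabrb2. Gabrg3 1445846_at had no match as close, with r = 0.77 for Stk32b, 0.76 for Serpinb8 and 0.75 for Rps6kl1. These are descriptions over arrays that share sorting, genotype and processing, and no test was made.

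**Figure D4:**
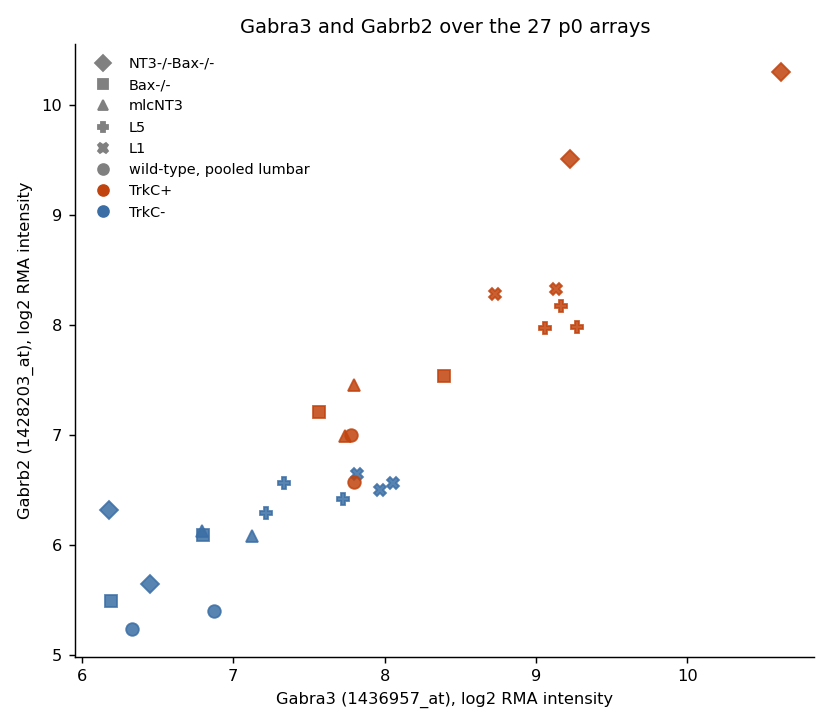
Log2 RMA intensity of Gabrb2 1428203_at against Gabra3 1436957_at on the 27 p0 arrays, 1 point per array, with TrkC+ in orange, TrkC- in blue and symbols for genotype or level. The points lie along 1 band, with the NT3-/-Bax-/- TrkC+ arrays at its upper end (9.23 and 10.62 for Gabra3, 9.50 and 10.30 for Gabrb2) and TrkC- arrays at its lower end.

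Other genes of GABA and glycine signalling were taken from lists, with 1 probe set a gene, the brightest. The shares given beside them are over all probe sets, dim ones included, so the 2 are not like for like. These lists were chosen with earlier results of these data known. Of 11 other GABA-A subunits measured (15 listed), 2 were higher and 0 lower in wild-type TrkC+ than TrkC- cells, where 5.12% of all probe sets were higher and 3.83% lower: Gabrg1, the gamma1 subunit (log2 difference 4.53, SE 0.40, adjusted p = 2.06e-05), and Gabra4, alpha4 (1.59, SE 0.40, adjusted p = 0.0261). In NT3-/-Bax-/- against Bax-/- TrkC+ cells 1 of the 11 was higher and 2 were lower, with a list median of 0.00, while 9.05% of all probe sets were higher and 9.17% lower. Those lower were Gabrg1, which fell by 5.00 on the log2 scale (SE 0.40, adjusted p = 1.09e-05), and Gabra2, alpha2, which fell by 3.85 (SE 0.63, adjusted p = 0.00129). Their means of 4.47 and 3.97 in NT3-/-Bax-/- TrkC+ cells lie under the lower quartile of the arrays (4.51 to 4.68), in the dim range. Differences may read too small there, which was not tested. Against the same shares, the 10 chloride transport genes measured were 6 lower and 0 higher (median -0.90, against 0.01 over all probe sets), and among the 5 glycine receptor genes, 1 higher and 1 lower, Glra2 rose by 3.20 (SE 0.62, adjusted p = 0.00371). Of 17 genes of receptor anchoring and trafficking 2 rose and 4 fell, among them Plcl1, which binds GABA-A receptors (-3.04, SE 0.23, adjusted p = 8.26e-06). The 8 genes of GABA synthesis, transport and breakdown were 2 lower and 0 higher, and the 4 GABA-B receptor genes had 0 calls.

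In the comparison of TrkC+ with TrkC- cells of wild-type mice, 4 of the 10 chloride transport genes were higher and 0 lower. Of all probe sets 5.12% were higher and 3.83% lower, and the medians were 0.28 in the list and -0.07 over all probe sets. Those higher in the list included the potassium chloride cotransporter Slc12a5 (2.78, SE 0.32, adjusted p = 0.000141) and the calcium-activated chloride channel Ano1 (2.24, SE 0.43, adjusted p = 0.00536). Glrb, the glycine receptor beta subunit, was higher too (1.81, SE 0.29, adjusted p = 0.00179), 1 of 5 in its list, against the same shares. Between levels, 3 of the 11 other subunits were higher at L5 than at L1 in p0 TrkC+ cells and 0 lower, where 0.397% of all probe sets were called in either direction, namely Gabrg1 (2.84, SE 0.46, adjusted p = 0.0281), Gabra4 (2.09, SE 0.32, adjusted p = 0.0207) and Gabrb1, beta1 (1.26, SE 0.20, adjusted p = 0.0233). In adult DRG Gabrg1 was higher at L5 with a wheel (2.19, SE 0.16, adjusted p = 1.1e-06) and without (1.73, SE 0.16, adjusted p = 2.36e-05), as Gabra5 was, and Gabrb1 was lower (-0.61, SE 0.10, adjusted p = 0.00156 with a wheel and -0.60, SE 0.10, adjusted p = 0.00265 without).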

How the data were processed

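Deposited values were linear intensities, 1 per probe set and array, which the authors made from arrays of RNA amplified by in vitro transcription with rma() of the affy package in R 2.9 (background correction, normalization and summary by RMA). The sources used here do not say whether 1 normalization covered the whole set, so tests and orders of level were kept within a set of arrays (16 genotype, 11 level, 12 adult), while ranges over more than 1 set, and likeness over both p0 sets, take their scales as equal. Intensities were taken to log2 with no pseudocount, although log2 values had been assumed in the plan. Array medians lay between 6.02 and 6.18. The authors' MAS5 calls were not used. Of 45101 probe sets 64 controls were left out. Annotation gave 1 symbol for 34958, several for 932 and none for 9211.

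Group means were fitted without covariates by lmFit and eBayes of limma 3.58.1 (R 4.3.3), separately for each set, after tests on simulated data. Calls had a Benjamini-Hochberg adjusted p under 0.05 over all 45037 probe sets. Every single-symbol probe set of the 4 genes was named, and of other lists those with the largest change among calls. For likeness the brightest probe set of each gene was correlated over the p0 arrays. The genes and lists were chosen with earlier results of these data known. The few arrays a group set the precision, and the lowest correlation within a group was 0.972 at p0 and 0.994 in adults. With so few arrays, groups can lie apart by chance, and the share of all probe sets without overlap was not counted. In mlcNT3 against wild-type TrkC+ cells 9 of the 12 probe sets did not overlap and 0 were called.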

Additional observations from a re-analysis of the deposited data

Results flagged for a closer look

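The effect of NT3 loss differed between the sorted populations for 5 probe sets, by limma's test of the change in TrkC+ cells minus the change in TrkC- cells. The difference was 2.12 for Gabra3 1436957_at (SE 0.56, adjusted p = 0.0334). For Gabrb2 it was 2.33 for 1428203_at (SE 0.44, adjusted p = 0.00552), 1.36 for 1428204_at (SE 0.35, adjusted p = 0.0299), 1.25 for 1428205_x_at (SE 0.24, adjusted p = 0.00551) and 2.56 for 1429685_at (SE 0.42, adjusted p = 0.00257). No group held enough arrays for a check of single arrays that stand apart.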

How the results depend on the processing

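Of 1068 settings tried on 92 results for single probe sets, 872 kept the direction and the side of the threshold, 173 lost a call, 15 gained one and 8 turned direction. Those that turned were not called. They were Gabrg3 1439717_at without NT3-/-Bax-/- TrkC+ replicate 2 (-0.47 against Bax-/- and -0.87 against wild-type TrkC+ cells, and 3.42 and 3.02 without replicate 1), Gabra5 in NT3-/-Bax-/- TrkC+ cells (-0.28 to 0.83 against Bax-/- and -0.65 to 0.46 against wild-type without 1 array), Gabra3 1436957_at in mlcNT3 against wild-type TrkC+ cells (0.040 with quantile normalization, -0.046 to 0.0085 without 1 array) and, in adult L5 against L1 without a wheel, Gabrb2 1428203_at (-0.24 to 0.058 without 1 array) and 1428205_x_at (-0.091 to 0.50 without 1 array). Counts of called member probe sets stayed within 1.5 times under quantile normalization and under a trended, robust variance.

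TrkC+ against TrkC- cells gave 2 calls in wild-type (5 in a fit of only these groups, 1 by the methods' t-test with its fold limit, 0 by that t-test after Benjamini-Hochberg adjustment, 1 to 2 without 1 array), 3 in Bax-/- (1, 1, 0 and 1 to 3), 3 in mlcNT3 (5, 1, 0 and 1 to 2) and 9 in NT3-/-Bax-/- mice (4 without dim probe sets, 3 and 0 by the t-tests, 7 to 9 without 1 array). NT3 loss in TrkC+ cells gave 7 calls against Bax-/- (3 without dim probe sets, 4 with only these groups, 3 and 0 by the t-tests, 6 to 8 without 1 array) and 8 against wild-type (3 without dim probe sets, 3 and 0 by the t-tests, 6 to 8 without 1 array). Its difference between populations gave 5 (3 without dim probe sets, 1 with only these groups, 3 to 5 without 1 array). Counts of 0 became 1 for Bax-/- against wild-type TrkC+ cells without dim probe sets and by the t-test with fold, 1 (only these groups) and 2 (t-test with fold) for mlcNT3 TrkC+ cells, and 1 by the t-test with fold for mlcNT3 TrkC- cells and for L5 against L1 TrkC- cells. At L5 the 7 calls became 3 without dim probe sets, 4 and 3 by the t-tests and 5 to 7 without 1 array, and at L1 3, 3, 2 and 4 to 6. Adult L5 against L1 gave 3 calls without a wheel (1 without dim probe sets, 0 with only these groups and by both t-tests, 0 to 3 without 1 array) and 2 with one (1 without dim probe sets, 0 by the adjusted t-test, 1 to 2 without 1 array). Running at L5 gave 0 to 1 without 1 array. Without 1 array, the counts of 0 in all other comparisons remained 0. Leaving out dim probe sets removes member probe sets from the test. The cause of the other shifts was not tested. Shares of all probe sets called under each setting are not given, so no shift is read as particular to these genes.

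The replicate numbers were not taken as pairs, since no label ties them. Deviations of same-numbered TrkC+ and TrkC- arrays correlated at 0.197 in wild-type, 0.283 in Bax-/-, 0.158 in NT3-/-Bax-/- and 0.00768 in mlcNT3 mice. These have 2 pairs each, whose deviations mirror each other, so each is a single value. In p0 L5 the correlations were 0.0849 to 0.203 (others at most 0.0436). Gabrg3 1439717_at followed the numbers in NT3-/-Bax-/- mice, at 3.95 and 7.85 in TrkC+ and 4.02 and 7.45 in TrkC- cells. Whether those arrays share an animal or litter is not labelled. In every comparison with 3 pairs the lowest was at or under 0.0849. With the replicate block no count moved by over 1.5 times, and calls were lost for Gabra5 in adult L5 without a wheel (0.41), Gabrb2 1428204_at at p0 L5 (0.47), Gabrg3 1439717_at in adult L5 with a wheel (-0.42) and Gabrg3 1445846_at at p0 L1 (-0.52), and gained for Gabrb2 1428204_at in adult L5 with a wheel (0.67). Between Bax-/- and wild-type TrkC- cells same-numbered arrays correlated at -0.109, and the crossed replicate block, chosen after seeing the data, gave 0 calls.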
